A study of Rattus norvegicus with 10 samples.

Results

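The genes described here are 10 markers of Kupffer cells and other macrophages, followed in rat liver after sulfur mustard (SM) and after SM with MSTF. They were chosen by name: Cd163, Marco, Clec4f, Vsig4, Cd5l, Cd68, Adgre1, Csf1r, C1qa and C1qb. A microarray probe was taken for a gene when the accession printed for that probe belonged to the gene or to an older name of it. In this way 9 of the 10 genes matched a probe, against 9190 named genes with a tested probe on the array, and these 9 genes were represented by 11 probes, since Cd163 and C1qa had 2 each. Cd5l, a secreted scavenger receptor protein of tissue macrophages, was not analysed here.

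RNA was taken from the liver of 10 male Sprague Dawley rats and hybridised to 10 one-colour arrays, 1 rat per array. The control group held 3 rats that received the solvent of SM, propylene glycol, by subcutaneous injection. The SM group held 4 rats given SM, a bifunctional alkylating vesicant, as a single subcutaneous dose of 3.5 mg/kg, which is 0.7 of the LD50. The SM + MSTF group held 3 rats given the same SM dose and, 1 h later, 120 mg/kg MSTF intragastrically, a mixture of salvianolic acids and total flavonoids from the plants Salvia miltiorrhiza and Anemarrhena asphodeloides. All livers were taken 24 h after SM. There was no group given MSTF without SM, and whole liver was measured, so fewer macrophages and less RNA per macrophage cannot be told apart in these values.

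Kupffer cells are the resident macrophages of the liver. They sit in the sinusoids, take up bacteria, complement-coated particles, haemoglobin and dying cells from portal blood, and depend for survival on the receptor Csf1r and its ligands. In rodents, Clec4f and Vsig4 mark Kupffer cells more narrowly than other macrophages, Marco and Cd163 are scavenger receptors carried by resident macrophages, and Cd68, Adgre1 and Csf1r are shared with most other macrophages. C1qa and C1qb encode chains of the complement starter C1q, which in the liver is made largely by macrophages.

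Signals are given as quantile-normalised log2 intensity. The brightness of different probes cannot be compared, so each gene was compared only with itself across arrays. All 11 probes were well above background on all 10 arrays, and no spot on any array was saturated. Between 51.9% and 61.4% of all probes passed that mark on an array, and the median ratio of spot signal to local background was 2.2 to 2.54. The 3 control arrays and SM + MSTF replicate 3 lay on slide 1, the 4 SM arrays filled slide 2, and SM + MSTF replicates 1 and 2 lay on slide 3, so SM and its slide cannot be told apart. Of the hepatocyte list 11 of 11 genes were tested. All 9 endothelial genes with a probe were tested too, so that count is no check of the liver label. Actb and Gapdh differed by -0.17 to 0.17 on the log2 scale in the 3 comparisons, with 0 of 2 called.

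None of the 11 probes passed the test in any comparison. A probe was called changed when its adjusted p (limma, Benjamini-Hochberg over 22991 probes) was under 0.05 and its fold change at least 1.5. In SM against control 0 of 11 marker probes were called, where 2.41% of all tested probes were. For SM + MSTF against SM the count was again 0 of 11, where 1.26% of all tested probes were called. For SM + MSTF against control it was 0 of 11, where 0% were called. At an unadjusted p under 0.05 the counts were 0 of 11 in SM against control, 1 of 11 in SM + MSTF against control and 5 of 11 in SM + MSTF against SM, where the shares of all tested probes were 16.4%, 9.54% and 15.9%. The methods' t-test at an unadjusted p under 0.05 with the 1.5-fold minimum selected 0, 1 and 2 of the 11 probes. Of all 22991 tested probes it selected 1131 in SM against control, 285 in SM + MSTF against control and 863 in SM + MSTF against SM. After Benjamini-Hochberg adjustment it selected 0 of the 11 in each comparison, and 320, 0 and 13 of all tested probes.

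What the 11 probes shared was the order of the group means. Each of the 11 had its lowest mean in SM and its highest in SM + MSTF, an order held by 16.2% of all tested probes. In SM against control all 11 fitted differences were below 0, where 44.1% of all tested probes were. Against control, all 11 were above 0 in SM + MSTF, where 50.9% were, and in SM + MSTF against SM all 11 were above 0, where 46.4% were. The 3 comparisons share arrays and the 9 genes vary together across arrays, as described below, so these counts are a description and not 11 separate observations. With 1 probe per gene, the median log2 fold change of the 9 genes was -0.15 in SM against control, 0.28 in SM + MSTF against control and 0.41 in SM + MSTF against SM. The medians over all 9190 genes tested were 0.04, 0.02 and -0.02. Without SM replicate 2 the first of the marker medians was -0.03 and the third 0.29, and without SM replicate 4 they were -0.26 and 0.57.

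**Figure D1:**
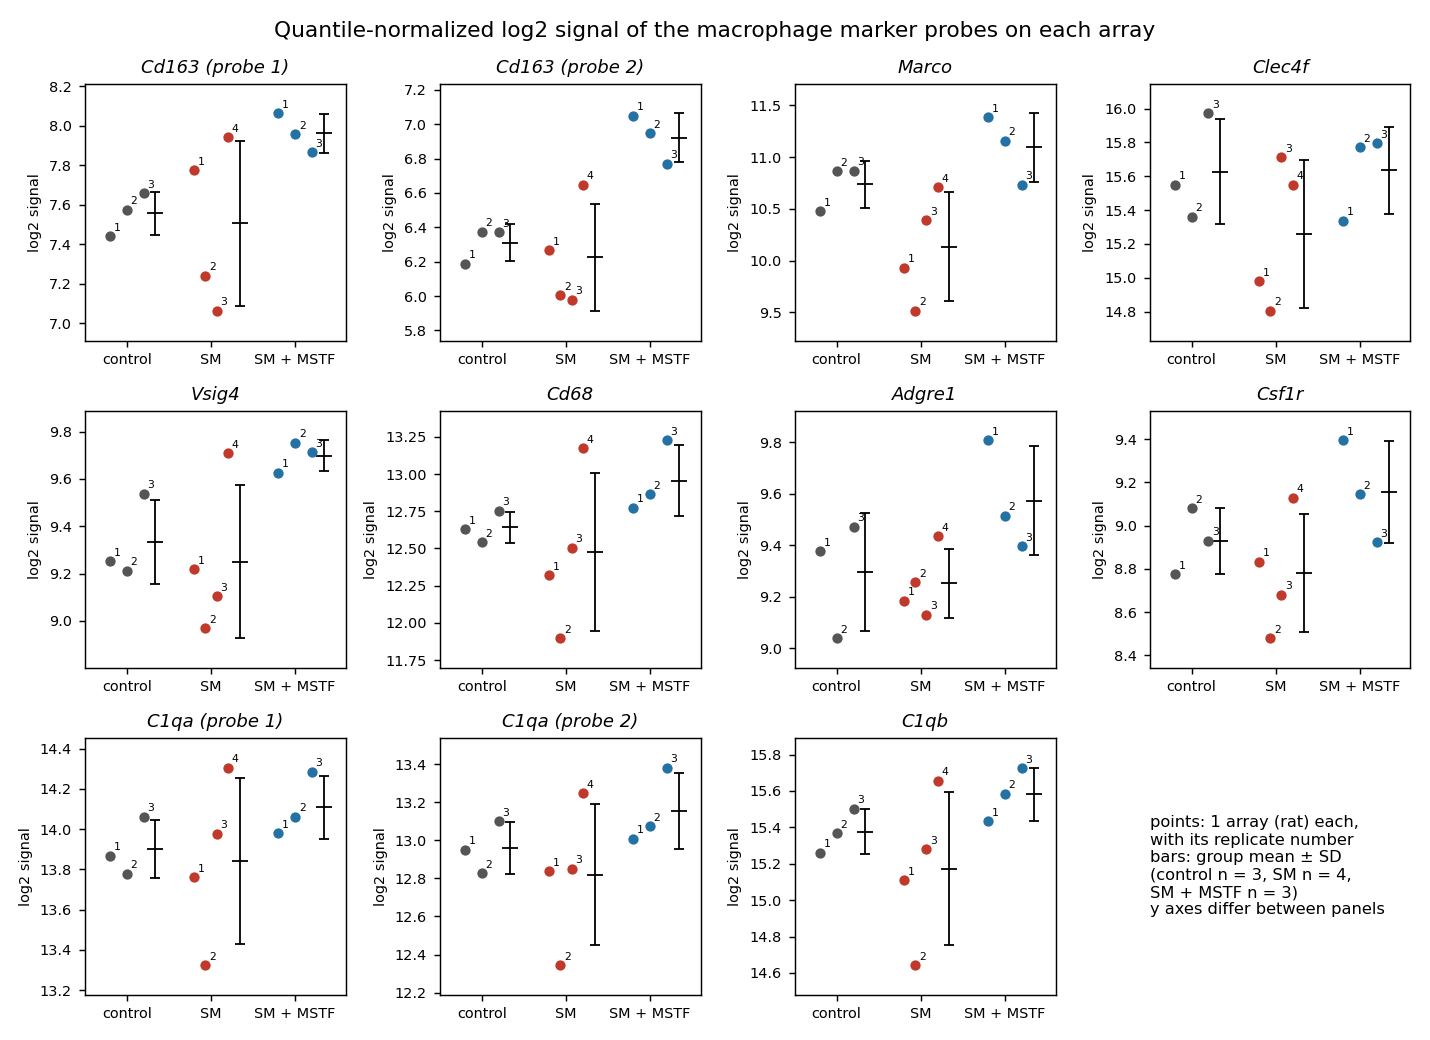
Quantile-normalised log2 signal (y axis) of each of the 11 marker probes on each array, by group (x axis), with the replicate number beside each point and the group mean ± SD as bars (control n = 3, SM n = 4, SM + MSTF n = 3). The SM arrays are spread the most for 10 of 11 probes, with SM replicate 2 low and SM replicate 4 high for most of them.

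Marco is a scavenger receptor that binds bacteria and particles. Its log2 signal was 10.48, 10.86 and 10.87 on the control arrays, 9.93, 9.51, 10.39 and 10.71 on the SM arrays and 11.38, 11.16 and 10.73 on the SM + MSTF arrays. The SM arrays lay below the highest control arrays but overlapped the control range, and the lowest SM + MSTF array lay just above the highest SM array. Marco had the largest difference of the 11 probes in SM against control, at -0.60 ± 0.27 (log2 fold change ± SE), with an unadjusted p of 0.054 and an adjusted p of 0.315 in limma. Between SM + MSTF and SM it was 0.96 ± 0.27, which is 1.94-fold, with a limma unadjusted p of 0.006 and an adjusted p of 0.147. Between SM + MSTF and control it was 0.36 ± 0.29, with a limma adjusted p of 0.723.

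Cd163 is the haemoglobin-haptoglobin receptor. On its brighter probe (A_43_P17457) the log2 signal was 7.44, 7.57 and 7.66 in control, 7.78, 7.24, 7.06 and 7.94 in SM, and 8.06, 7.96 and 7.87 in SM + MSTF. On the second probe (A_43_P18105) it was 6.19, 6.37 and 6.37 in control, 6.27, 6.003, 5.98 and 6.65 in SM, and 7.05, 6.95 and 6.77 in SM + MSTF. On both probes every SM + MSTF array was above every control array, and on the second probe every SM + MSTF array was also above every SM array. The second probe differed by 0.61 ± 0.17 in SM + MSTF against control (limma adjusted p = 0.423) and by 0.70 ± 0.16 in SM + MSTF against SM, which is 1.62-fold (limma adjusted p = 0.081). The brighter probe gave 0.41 ± 0.21 (adjusted p = 0.582 in limma) and 0.46 ± 0.20 (adjusted p = 0.306 in limma) for the same comparisons. SM and control differed little on either probe, by -0.05 ± 0.20 and -0.09 ± 0.16. The second Cd163 probe was the only one of the 11 to be called in any of the limma alternatives, in SM + MSTF against SM without SM replicate 4 (log2 fold change 0.84, limma adjusted p = 0.024). With normexp background correction its difference in that comparison was 0.30, with a limma adjusted p of 0.179.

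Clec4f is a C-type lectin used as a Kupffer cell marker in rodents. Its 10 arrays gave a log2 signal of 15.55, 15.36 and 15.97 in control, 14.98, 14.80, 15.71 and 15.55 in SM, and 15.34, 15.77 and 15.79 in SM + MSTF. SM replicates 1 and 2 lay below all other arrays, while SM replicates 3 and 4 lay within the control range. The difference was -0.37 ± 0.24 in SM against control (limma adjusted p = 0.510), 0.37 ± 0.24 in SM + MSTF against SM (limma adjusted p = 0.463) and 0.01 ± 0.26 in SM + MSTF against control, with a 95% interval of -0.58 to 0.59.

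Vsig4 is the complement receptor through which Kupffer cells capture particles coated with C3 fragments. The log2 signal was 9.25, 9.21 and 9.54 in control, 9.22, 8.97, 9.10 and 9.71 in SM, and 9.63, 9.75 and 9.71 in SM + MSTF. The SM + MSTF arrays lay above all control arrays and above SM replicates 1 to 3, and SM replicate 4 lay among them. The difference was 0.45 ± 0.17 in SM + MSTF against SM (limma unadjusted p = 0.025, adjusted p = 0.251), 0.36 ± 0.18 in SM + MSTF against control (limma adjusted p = 0.558) and -0.08 ± 0.17 in SM against control (limma adjusted p = 0.855).

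Cd68 is a lysosomal glycoprotein of phagocytes. The log2 signal of Cd68 was 12.63, 12.54 and 12.75 in control, 12.32, 11.90, 12.50 and 13.18 in SM, and 12.78, 12.86 and 13.23 in SM + MSTF. The 4 SM arrays thus reached from below all other arrays to nearly the highest of the 10, and their SD was 0.53 against 0.11 in control. The difference was -0.17 ± 0.25 in SM against control (limma adjusted p = 0.799), 0.31 ± 0.27 in SM + MSTF against control (limma adjusted p = 0.739) and 0.48 ± 0.25 in SM + MSTF against SM (limma adjusted p = 0.376).

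Adgre1, an adhesion receptor long used to mark rodent macrophages, was the probe with the narrowest spread in SM. The arrays gave 9.38, 9.04 and 9.47 in control, 9.18, 9.26, 9.13 and 9.43 in SM, and 9.81, 9.51 and 9.39 in SM + MSTF. All 3 groups overlapped. The difference was -0.04 ± 0.14 in SM against control, with a 95% interval of -0.36 to 0.27. That interval lies inside a 1.5-fold difference in either direction, but it holds SM and its slide together. It was 0.32 ± 0.14 in SM + MSTF against SM (limma unadjusted p = 0.048, adjusted p = 0.310) and 0.28 ± 0.15 in SM + MSTF against control (limma adjusted p = 0.594).

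Csf1r is the receptor for the macrophage growth factors Csf1 and Il34. Its log2 signal was 8.78, 9.08 and 8.93 in control, 8.83, 8.48, 8.68 and 9.13 in SM, and 9.39, 9.15 and 8.92 in SM + MSTF. All 3 groups overlapped, with the lowest value on SM replicate 2 and the highest on SM + MSTF replicate 1. The difference was -0.15 ± 0.17 in SM against control (limma adjusted p = 0.716), 0.23 ± 0.18 in SM + MSTF against control (limma adjusted p = 0.717) and 0.37 ± 0.17 in SM + MSTF against SM (limma adjusted p = 0.319). Its ligand Csf1 differed by -0.08 ± 0.21 in SM against control (limma adjusted p = 0.888), and Il34 was not analysed here.

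C1qa and C1qb encode 2 of the chains that assemble into C1q. On the brighter C1qa probe the log2 signal was 13.87, 13.78 and 14.06 in control, 13.76, 13.32, 13.98 and 14.31 in SM, and 13.98, 14.06 and 14.28 in SM + MSTF. The second C1qa probe ran from 12.34 on SM replicate 2 to 13.38 on SM + MSTF replicate 3. For C1qb the log2 signal was 15.26, 15.37 and 15.50 in control, 15.11, 14.64, 15.28 and 15.66 in SM, and 15.43, 15.59 and 15.73 in SM + MSTF. On all 3 probes SM replicate 2 was the lowest of the 10 arrays, and SM replicate 4 was close to the highest SM + MSTF array. Between SM + MSTF and SM the brighter C1qa probe differed by 0.27 ± 0.20, the second by 0.34 ± 0.19 and C1qb by 0.41 ± 0.20, with limma adjusted p of 0.529, 0.408 and 0.352. C1qc, the third chain, was no marker in the set and differed by 0.34 ± 0.18 in the same comparison (limma adjusted p = 0.376).

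**Figure D2:**
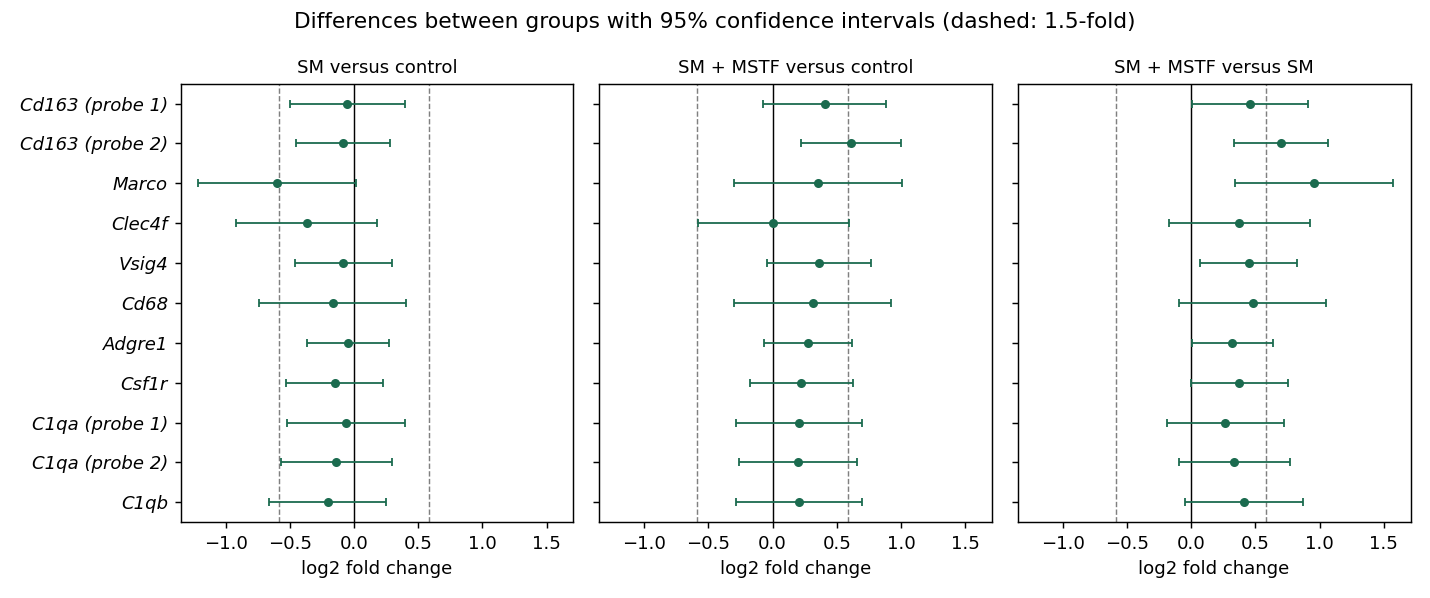
Log2 fold change (x axis) of each of the 11 marker probes (y axis) in the 3 comparisons, with 95% confidence intervals from the limma fit, and dashed lines at 1.5-fold in either direction. In SM against control all 11 intervals include 0, and in SM + MSTF against SM all 11 estimates lie above 0 with 5 intervals that leave 0 out.

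The intervals show which sizes of difference between groups of arrays could be left out. Each comparison with SM also holds the difference of its slide, so no size of an SM effect alone is left out. In SM against control the 95% intervals of all 11 probes included 0, and the widest, of Marco, reached from -1.21 to 0.01. The intervals of 7 of the 11 probes lay wholly inside a 1.5-fold change in either direction. For SM + MSTF against SM the interval of Marco was 0.34 to 1.57 and that of the second Cd163 probe 0.33 to 1.06. These intervals hold for 1 probe at a time and are not adjusted for the number of probes tested. SM + MSTF arrays lay above all control arrays without overlap on 4 of 11 probes, those of Cd163, Vsig4 and Cd68, where 8.03% of all tested probes did. They lay above all SM arrays on 2 of 11, Marco and the second Cd163 probe, where 5.95% did. In the 1 slide that held both groups, SM + MSTF replicate 3, which is 1 array, differed from the control mean by -0.01 to 0.58 over the 11 probes. That array was the highest of the 10 for 14.4% of all genes tested and the lowest for 21%. SM + MSTF replicates 1 and 2, on their own slide, differed from the same control mean by -0.07 to 0.69. For Marco the value within slide 1 was -0.0018 and that of slide 3 was 0.54, and for Csf1r they were -0.01 and 0.34. Cd68 went the other way, with 0.58 within slide 1 and 0.18 on slide 3.

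**Figure D3:**
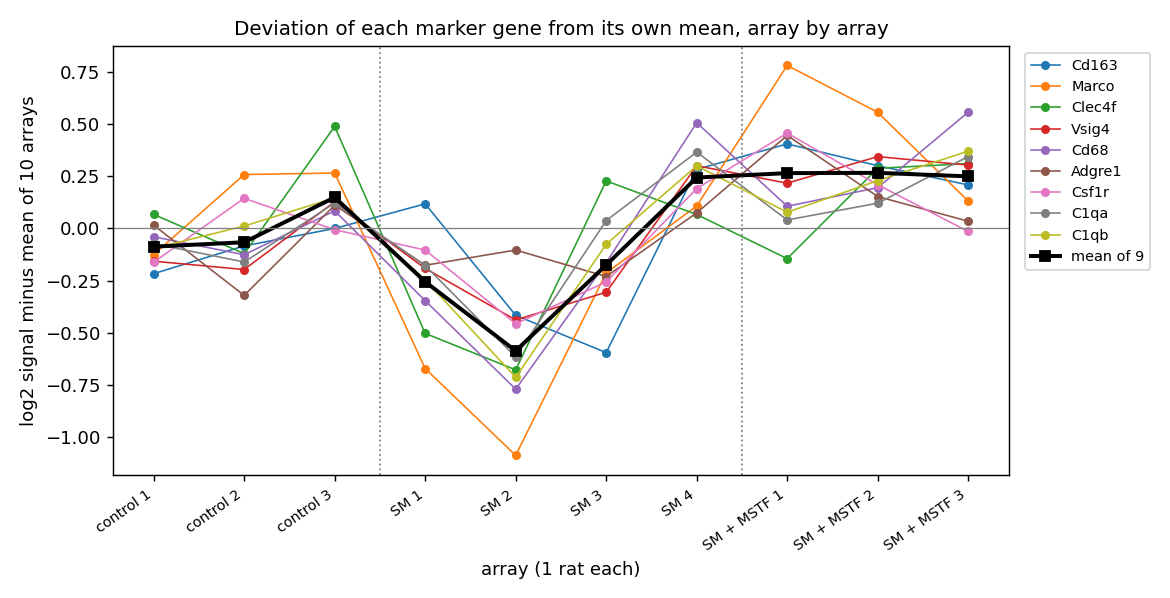
Log2 signal of each of the 9 marker genes minus its own mean over the 10 arrays (y axis), array by array (x axis, with the groups separated by dotted lines), and the mean of the 9 genes in black. The mean lies at -0.59 on SM replicate 2 and at 0.24 on SM replicate 4. On the 3 SM + MSTF arrays the mean lies at 0.25 to 0.27, while single genes differ: from replicate 1 to 3 Marco falls and Cd68 rises.

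The markers varied together over the 10 arrays, but not among the 3 SM + MSTF rats. The mean deviation of the 9 genes from their own means was -0.09, -0.07 and 0.15 on the control arrays, -0.26, -0.59, -0.18 and 0.24 on the SM arrays and 0.26, 0.27 and 0.25 on the SM + MSTF arrays. SM replicate 4 thus stood with the SM + MSTF rats, and SM replicate 2 stood lowest. As group values these were -0.0019 ± 0.13 (SD, n = 3) for the controls, -0.19 ± 0.34 (SD, n = 4) for the rats given SM alone and 0.26 ± 0.0094 (SD, n = 3) for those also given MSTF. SM without replicate 2 gave -0.06 ± 0.27 (SD, n = 3), and SM without replicate 4 gave -0.34 ± 0.22 (SD, n = 3). SM replicate 2 was the lowest of all 10 arrays for 7 of the 9 genes, where it was the lowest for 11.3% of all genes tested. SM replicate 4 was the highest SM array for 8 of 9. Within SM + MSTF, replicate 1 was the lowest array for 5 of the 9 genes and the highest for 4. Replicate 3 of that group was the lowest for 4 and the highest for 4. From replicate 1 to 3 Marco fell (11.38, 11.16 and 10.73) while Cd68 rose (12.78, 12.86 and 13.23). The near-equal SM + MSTF means thus average genes that moved in opposite ways.

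The spread within SM was larger than elsewhere. The median SD of the 11 probes was 0.14 in control, 0.41 in SM and 0.20 in SM + MSTF, where the medians over all tested probes were 0.15, 0.18 and 0.19. The SM group had the largest SD of the 3 for 10 of 11 marker probes, and for 33.7% of all tested probes. SM replicate 2 had the highest share of probes well above background of the 10 arrays, at 61.4%, against 58.9% on SM replicate 4, and the signal-to-background ratios of both were 2.4 and 2.39. The part of these array values in the spread was not tested.

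Over the 36 pairs of the 9 genes, Pearson's r across the 10 arrays was above 0 in 36, with a median of 0.69. After the group means were taken out, r was above 0 in 35 pairs with a median of 0.56. The closest pairs were Cd68 with C1qb (r = 0.97, rho = 0.95), Cd68 with C1qa (r = 0.97, rho = 0.92) and C1qa with C1qb (r = 0.96, rho = 0.94). For Cd68 with C1qb, r was 0.93 without the 2 arrays farthest from the Cd68 median and 0.96 after the group means were taken out. The loosest pairs involved Clec4f, with r of 0.18 against Cd163, 0.27 against Adgre1 and 0.31 against Csf1r. Marco and Clec4f gave r = 0.66, which was -0.24 without the 2 arrays farthest from the Marco median, so that relation rested on those arrays. Without the same arrays r was -0.00029 for Marco with C1qa and 0.16 for Marco with Cd68, but 0.91 for Marco with Csf1r. Without the 2 arrays farthest from the Clec4f median, r was -0.49 for Clec4f with Csf1r. C1qa with C1qb kept r of 0.88 without the 2 arrays farthest from the C1qa median. These correlations describe 10 arrays that share slides and normalisation, and they carry no test.

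Among 8432 other genes well above background on all 10 arrays, the 5 whose pattern was most like the mean of the 9 standardised marker signals were Cybb, C1qc, Grn, Fgl2 and Psmb8. Their r over the 10 arrays was 0.99, 0.97, 0.97, 0.95 and 0.95. Cybb encodes the catalytic subunit of the phagocyte NADPH oxidase, and its log2 signal was 6.68, 6.74 and 7.06 in control, 6.59, 6.23, 6.61 and 7.17 in SM, and 7.25, 7.15 and 7.12 in SM + MSTF. Grn encodes the lysosomal protein progranulin, Fgl2 a fibrinogen-like protein of macrophages and T cells, and Psmb8 an immunoproteasome subunit. Each of the 5 had its lowest signal on SM replicate 2, as most of the markers did.

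The windows around the start sites of genes that varied together were read for letters they share. Promoter sequences came from RefSeq (build GRCr8), matched by symbol for all 10 genes, with 250 bases before and 50 bases after each start. The motifs searched, on both strands, were GAGGAA, the core that the macrophage factor PU.1 (Spi1) prefers, TGANTCA, the AP-1 motif, and TCACGTG, the E-box of many lysosomal gene promoters, none of which overlapped another in these windows. Below, the tight trio C1qa, C1qb and Cd68 stands first, then Marco, which had the largest difference in SM against control and in SM + MSTF against SM, and then Cd163 and Clec4f, the loosest pair. Capitals mark the motif matches, and the build is GRCr8.
C1qa, chr5:154419884-154420183, minus strand: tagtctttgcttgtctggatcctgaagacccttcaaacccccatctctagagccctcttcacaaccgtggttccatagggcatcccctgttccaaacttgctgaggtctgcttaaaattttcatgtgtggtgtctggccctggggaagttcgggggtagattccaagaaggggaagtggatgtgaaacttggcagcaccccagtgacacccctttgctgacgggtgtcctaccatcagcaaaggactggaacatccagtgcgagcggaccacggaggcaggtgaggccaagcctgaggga
C1qb, chr5:154407778-154408077, minus strand: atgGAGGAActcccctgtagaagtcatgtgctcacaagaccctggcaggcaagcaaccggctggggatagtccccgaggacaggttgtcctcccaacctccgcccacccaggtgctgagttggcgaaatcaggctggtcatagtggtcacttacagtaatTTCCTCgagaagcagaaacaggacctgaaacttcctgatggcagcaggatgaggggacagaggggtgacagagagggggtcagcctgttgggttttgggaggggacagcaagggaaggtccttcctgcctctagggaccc
Cd68, chr10:54882392-54882691, minus strand: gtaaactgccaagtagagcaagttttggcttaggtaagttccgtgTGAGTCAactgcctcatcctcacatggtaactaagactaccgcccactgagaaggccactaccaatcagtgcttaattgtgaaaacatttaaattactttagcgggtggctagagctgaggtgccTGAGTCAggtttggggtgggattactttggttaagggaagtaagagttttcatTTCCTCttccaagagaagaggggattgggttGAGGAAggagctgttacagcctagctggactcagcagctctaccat
Marco, chr13:34201206-34201505, minus strand: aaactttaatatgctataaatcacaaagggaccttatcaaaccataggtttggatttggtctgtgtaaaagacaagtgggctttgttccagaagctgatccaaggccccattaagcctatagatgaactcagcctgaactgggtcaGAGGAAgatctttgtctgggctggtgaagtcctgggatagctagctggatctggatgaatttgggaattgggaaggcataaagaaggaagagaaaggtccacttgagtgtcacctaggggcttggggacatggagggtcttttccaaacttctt
Cd163, chr4:158770524-158770823, plus strand: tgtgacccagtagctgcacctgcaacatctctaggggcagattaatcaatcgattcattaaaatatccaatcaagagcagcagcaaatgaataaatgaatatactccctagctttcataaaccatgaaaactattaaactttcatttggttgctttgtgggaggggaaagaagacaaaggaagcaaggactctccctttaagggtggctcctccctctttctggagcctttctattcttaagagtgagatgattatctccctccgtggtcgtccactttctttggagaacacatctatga
Clec4f, chr4:117696358-117696657, minus strand: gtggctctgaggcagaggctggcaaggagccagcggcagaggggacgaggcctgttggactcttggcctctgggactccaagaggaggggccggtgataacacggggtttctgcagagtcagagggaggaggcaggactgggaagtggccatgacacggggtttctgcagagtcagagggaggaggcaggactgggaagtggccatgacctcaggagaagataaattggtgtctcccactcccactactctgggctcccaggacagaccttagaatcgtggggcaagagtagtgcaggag

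GAGGAA was found in 6 of the 10 windows, those of Marco, Cd5l, Cd68, Adgre1, Csf1r and C1qb, where 27.6% of all 33469 promoter windows of this length held it. Cd68 held it at positions -27 and 4 from the start site, C1qb at -247 and -90, and Marco at -104. C1qa, which varied most closely with Cd68 and C1qb, held none of the 3 motifs, and neither did Cd163, Clec4f or Vsig4. TGANTCA was found in 1 of 10 windows, that of Cd68, where 7.33% of all windows held it. TCACGTG was found in 0 of 10, where 3.2% did. A match is a run of letters and not a shown site, and a window without one says nothing of the factor. C1qb, C1qc and C1qa lie next to each other in that order in the annotation. Spi1 itself differed by -0.17 ± 0.27 in SM against control (limma adjusted p = 0.813), and its log2 signal was 5.99 on SM replicate 2 and 7.29 on SM replicate 4.

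**Figure D4:**
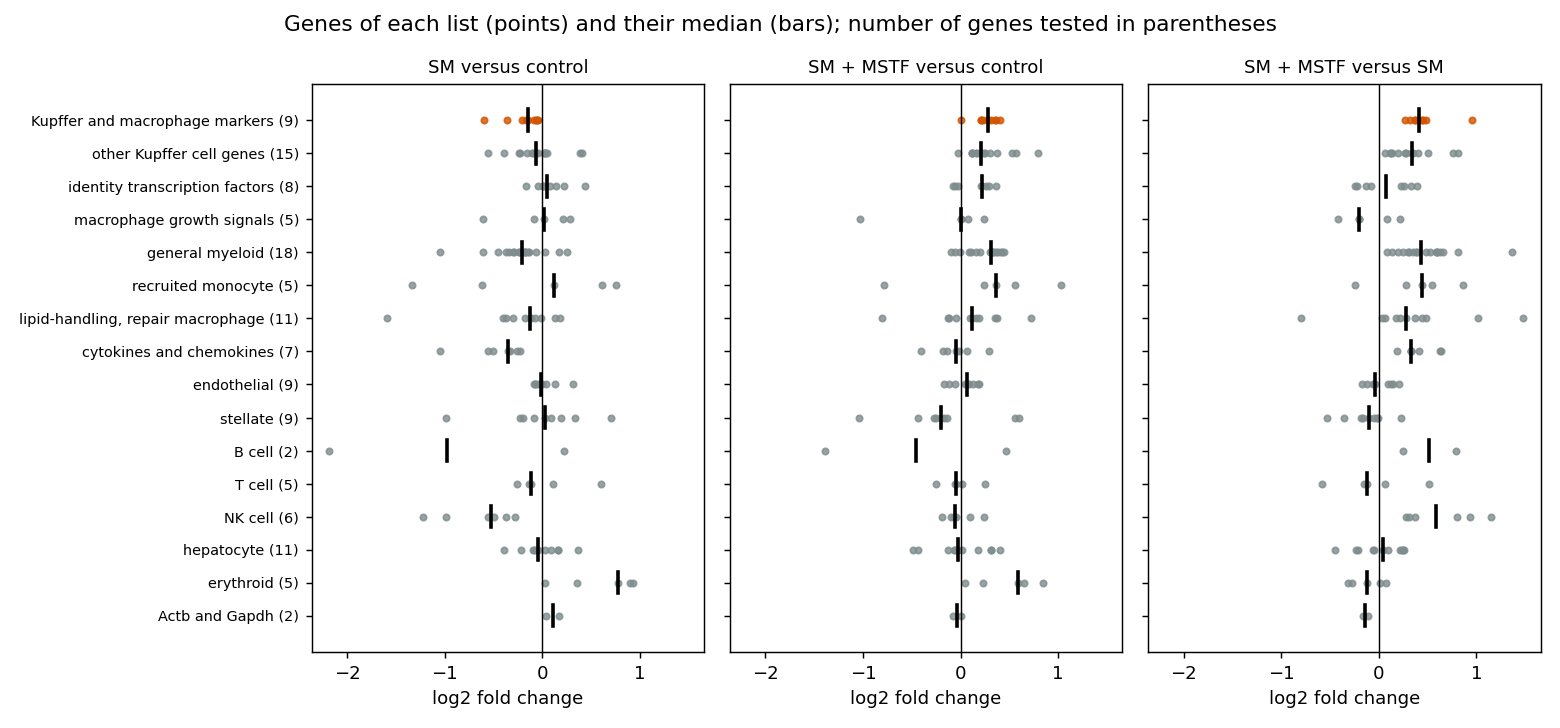
Log2 fold change (x axis) of each tested gene (points) of the marker set and of lists of related cell types and functions (y axis, number of genes tested in parentheses) in the 3 comparisons, with black bars at the list medians. In SM + MSTF against SM the marker median of 0.41 lies beside 0.34 for other Kupffer cell genes and 0.44 for general myeloid genes, while the endothelial median is -0.04 and the hepatocyte median 0.04.

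Other genes of the same cells are given beside the markers. Of 15 further Kupffer cell genes tested, 0 were called in any comparison, and their median log2 fold change was -0.06 in SM against control, 0.21 in SM + MSTF against control and 0.34 in SM + MSTF against SM, where all 15 were above 0. Of 18 general myeloid genes tested, 0 were called, with medians of -0.21, 0.31 and 0.44, and all 18 were above 0 in SM + MSTF against SM. The medians over all genes tested, 0.04, 0.02 and -0.02, are the values to read these against. Across the 10 arrays the mean deviation of the Kupffer list followed that of the markers with r = 0.95, and that of the myeloid list with r = 0.95. The markers and both lists were read from the same arrays. Between SM + MSTF and SM, Aif1, the calcium-binding protein Iba1 of macrophages, differed by 0.59 ± 0.23 (limma adjusted p = 0.256), the lysosomal protease Ctss by 0.66 ± 0.20 (limma adjusted p = 0.172) and the integrin Itgam by 1.37 ± 0.48 (limma adjusted p = 0.223). In SM against control the receptor Tlr2 differed by -0.45 ± 0.16 (limma adjusted p = 0.180) and the integrin Itgb2 by -0.37 ± 0.16 (limma adjusted p = 0.283). Itgam differed there by -1.05 ± 0.48 (limma adjusted p = 0.316) and Ctss by -0.35 ± 0.20 (limma adjusted p = 0.447). Tlr2, Itgb2, Itgam and Ctss were named for their low p in SM against control. The values of Itgam and Ctss against SM use the same SM arrays, so they are no separate support.

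Factors that set Kupffer cell identity lay on both sides of 0. Of 8 tested, 0 were called, 6 were above 0 in SM against control and 4 in SM + MSTF against SM, with medians of 0.04 and 0.07. The one with the lowest p in SM against control was Maf, a transcription factor of tissue macrophages that other liver cells also express, at 0.43 ± 0.11 (limma adjusted p = 0.077). Of 5 growth signal genes tested 0 were called, with a median of 0.02 in SM against control and -0.20 in SM + MSTF against SM.

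Markers of incoming monocytes were mostly out of reach. Of 11 genes on that list, 6 had a probe but were not well above background on every array of any group, among them Ccr2 and Cx3cr1, which define these cells. Of the 5 tested, 0 were called, with 3 above 0 and 2 below 0 in SM against control and a median of 0.12. S100a8 differed by 0.75 ± 0.65, S100a9 by 0.61 ± 0.60, Fcnb by 0.12 ± 0.46 and Plac8 by -0.62 ± 0.45. Ccl2, the chemokine that draws monocytes, had the lowest p in SM against control at -1.33 ± 0.39 (limma adjusted p = 0.119). Its log2 signal was 7.49, 8.17 and 7.34 in control, 5.99, 5.66, 6.27 and 7.43 in SM and 6.79, 7.29 and 6.57 in SM + MSTF, so SM replicates 1 to 3 lay below all other arrays. Of 12 macrophage cytokine, chemokine and mediator genes, 7 were tested and 0 called, with all 7 below 0 in SM against control and a median of -0.35, and Tnf, Il6, Nos2 and Ptgs2 were well above background on 0 of 10 arrays. Of 11 genes of lipid-handling and repair macrophages tested, 0 were called. Mmp12, the macrophage elastase, was well above background on all 3 control and all 3 SM + MSTF arrays and on 0 of 4 SM arrays, so it was tested through the groups in which it is brighter, and only a bound can be given. In the quantile-normalised signals its mean was at least 2.35-fold higher in control than in SM and at least 2.16-fold higher in SM + MSTF than in SM. With normexp background correction its log2 fold change was -0.43 in SM against control and 0.40 in SM + MSTF against SM, smaller in size than those bounds. The bound sets the SM arrays at the lowest signal of a probe well above background there, or at the measured Mmp12 signal if brighter.

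Markers of other cells were read in the same way. Of 6 natural killer cell genes tested, Klrd1, a receptor chain of these cells, was called lower in SM than in control (log2 fold change -1.22, limma adjusted p = 0.028) and higher in SM + MSTF than in SM (1.15, limma adjusted p = 0.046), and it was well above background on 8 of 10 arrays, with 2 of 4 in SM. Klrd1 was thus tested through the groups in which it is brighter, and its log2 signal on the SM arrays was 4.46, 3.64, 4.30 and 4.53. Its calls are therefore given as a description. Its calls were lost under 9 of 17 and 15 of 17 alternatives, among them each fit without 1 of the control arrays. The list's mean deviation ran from -1.08 on SM replicate 2 to 0.40 on SM replicate 4 and 0.88 on SM + MSTF replicate 3, and followed that of the markers with r = 0.77. Endothelial genes (9 tested, r = 0.27), T cell genes (5 tested, r = 0.41), stellate cell genes (9 tested, r = -0.32) and hepatocyte genes (11 tested, r = -0.11) are given with r of their mean deviation against that of the markers, and 0 genes of these 4 lists were called. The T cell gene Cd8b differed by 0.60 ± 0.16 in SM against control (limma adjusted p = 0.081) and by -0.58 ± 0.16 in SM + MSTF against SM (limma adjusted p = 0.123). Of the stellate genes, Rgs5 differed by 0.70 ± 0.22 in SM against control (limma adjusted p = 0.143) and Col1a1 by -0.99 ± 0.38 (limma adjusted p = 0.235). Of 4 B cell genes with a probe, 2 were tested and 0 called, with r = 0.25 against the markers. The 2 went opposite ways in SM against control. Cd22, well above background on all 10 arrays, differed by 0.22 ± 0.16 in that comparison (limma adjusted p = 0.541). In SM + MSTF against control Cd22 differed by 0.47 ± 0.17 (limma adjusted p = 0.458). Cd79b, a chain of the B cell receptor, had a log2 signal of 6.42, 6.65 and 6.02 in control, 3.57, 4.28, 5.04 and 3.84 in SM, and 5.63, 3.09 and 6.21 in SM + MSTF. The probe was well above background on all 3 control arrays, 2 of 4 SM arrays and 2 of 3 SM + MSTF arrays. Cd79b was thus tested only through the controls, in which it is brighter, so its difference is given as a description. In SM against control the fitted difference was -2.18 ± 0.65, and with normexp it was -0.64. Of 6 neutrophil genes with a probe, 5 were not tested, Elane, Camp, Csf3r and Mmp8 being well above background on 0 of 10 arrays. Both dendritic cell genes with a probe, Xcr1 and Itgae, were also well above background on 0 of 10. Red cell genes (5 tested) had a mean deviation of 0.56 on SM replicate 2, 0.63 on SM replicate 3 and 0.09 on SM replicate 4, with r = -0.18 against the markers. The part of these other cells in the marker values was not tested.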

How the data were processed

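Liver RNA of 10 rats was measured on 10 one-colour arrays, and groups were taken from the sample labels. The authors scanned the arrays and read spot intensity with Feature Extraction 10.7, as the submitters' processing notes name it, and deposited log2 values after quantile normalisation in GeneSpring. For this report the deposited background-subtracted intensity was quantile normalised after control spots and 0 to 4 non-uniform spots an array were dropped, put on the log2 scale and averaged per probe (R 4.3.3, limma 3.58.1). A probe was tested if all arrays of some group had it well above background, which kept 22991 of 41012, in 1 limma fit over all groups (lmFit, eBayes, Benjamini-Hochberg), called at an adjusted p under 0.05 and at least 1.5-fold. The number of arrays limits precision. The labels give a treatment and a replicate number, and the paper describes the arrays as individual rats. The p-values set group differences against the spread between arrays of a group. For SM the group difference also holds that of its slide. Names came through accessions from RefSeq genes of GRCr8, while the arrays were designed on an older build, so no probe coordinates are given. Where a gene had several probes, the brightest stood for it in lists. The procedure was tested on simulated data.

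The markers and lists were chosen with earlier results of these data known. The genes named beside the markers are each list gene called in a comparison, C1qc, Csf1, Il34, Timd4, Aif1 and Ccr2, up to 4 further genes of a list with the lowest unadjusted p in SM versus control, Actb and Gapdh, and the 5 genes most like the marker mean. Timd4 was not analysed here. Ctss and Itgam fall under the p rule. Fcnb falls outside it and was named as the remaining tested gene of the monocyte list. Genes named only as not well above background were chosen after their values were seen. Alternatives were 75th percentile scaling, the deposited log2 values, normexp with an offset of 50, other filters on dim probes, replicate number or slide as a block, only the groups compared, the methods' t-test, no fold minimum, the mean of a gene's probes, and each array left out.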

Additional observations from a re-analysis of the deposited data

How the results depend on the processing

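The count of 0 marker probes called held in SM against control under every alternative run. For SM + MSTF against control it was 1 (Cd163) with the methods' t-test at an unadjusted p. For SM + MSTF against SM it was 2 (Cd163 and Marco) with that t-test, and from 0 to 1 with each array left out, the 1 being Cd163 without SM replicate 4. Of 522 refitted values of single markers, 506 kept their sign. The changes of sign were in values near 0. In SM against control, C1qa was 0.011 with 75th percentile scaling and Cd163 0.0061 with normexp. With each array left out, Cd163 ran from -0.20 to 0.095 (above 0 without SM replicate 2 or 3), Vsig4 from -0.24 to 0.018 (above 0 without control replicate 3 or SM replicate 2), Cd68 from -0.40 to 0.026 (without SM replicate 2), Adgre1 from -0.17 to 0.044 (without control replicate 3), C1qa from -0.21 to 0.11 (without control replicate 3 or SM replicate 2), Csf1 from -0.21 to 0.051 and Spi1 from -0.42 to 0.014. In SM + MSTF against control, Clec4f ran from -0.13 to 0.18, and with the slide as a fixed block Marco was -0.0018 and Csf1r -0.0067. Between SM + MSTF and SM no marker changed sign. The cause was not tested.

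Over all probes, calls in SM against control (553) were 226 with normexp, 342 without a filter on dim probes, 336 among probes well above background on all 10 arrays, 85 with the slide as a random block, 1131 and 320 with the methods' t-test before and after adjustment, and 61 to 715 with each array left out. For SM + MSTF against control (0) they were 285 with the methods' t-test at an unadjusted p and 0 to 248 with each array left out. The slide as a fixed block sets SM + MSTF replicate 3 alone against the controls, so no count is given for it. Calls for SM + MSTF against SM (290) were 60 with normexp, 140 among probes well above background on all 10 arrays, 102 with the slide as a random block, 147 with only the groups compared, 863 and 13 with the methods' t-test before and after adjustment, and 96 to 291 with each array left out. Replicate numbers only name the rats: deviations of arrays with the same number correlated at -0.099 to 0.17, and 3 of 10 arrays were best matched by one of their own number. With the replicate block, calls were 53 in SM against control and 64 in SM + MSTF against SM, and 0 markers were called.

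Klrd1 lost its call in SM against control under 9 of 17 alternatives (limma adjusted p up to 0.11, log2 fold change -0.37 with normexp) and in SM + MSTF against SM under 15 of 17 (limma adjusted p up to 0.19, 0.30 with normexp), 5 and 9 of these leaving out 1 array. Ccl2 in SM against control (-1.33) ran from -1.69 without SM replicate 4, where it passed, to -0.81 with normexp, with a limma adjusted p up to 0.363 without control replicate 2. Mmp12, fitted at -1.59 and 1.47, was -0.43 in SM against control and 0.40 in SM + MSTF against SM with normexp. The number of rats limits precision.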
